A study of Mus musculus with 6 samples.

Results

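The transcripts described here are those of prolactin (Prl), of the dopamine and oestrogen receptors of prolactin-secreting cells (Drd2 and Esr1), of the related nuclear RNA-binding proteins NONO, SFPQ and PSPC1, and of the chromatin remodeller HLTF. Members were the probe sets of the array whose annotation names exactly 1 gene and that gene is 1 of these 7. This gave 16 probe sets of the 22690 on the array, or 7 genes of the 12394 named. The arrays measured whole pituitary glands, taken at zeitgeber time 12, the time of lights off. The mice were C57BL/6J males of 8 to 12 weeks, on a cycle of 12 hours light and 12 hours dark. Wild-type mice (arrays 1 to 3) were compared with Bmal1-/- mice (arrays 4 to 6), which lack the clock transcription factor BMAL1, encoded by Arntl. Which allele was used, and which exons it removes, no source used here gives. Each array carried RNA from a pool of 3 glands of 1 genotype, so n = 3 arrays per genotype throughout.

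Prolactin is made by lactotrophs of the anterior lobe, and its secretion is held down by dopamine from the hypothalamus acting on the D2 receptor and raised by oestrogen acting on the oestrogen receptor. NONO, SFPQ and PSPC1 form a family with shared RNA-recognition and dimerisation domains, pair with one another and are core components of paraspeckles, nuclear bodies built on the long RNA Neat1. In pituitary cells NONO and SFPQ have been tied to rhythmic activity of the prolactin promoter through recruitment to HLTF, an ATPase of the SNF2 family, and NONO also binds the clock protein PER. The comparison asks whether the levels of these transcripts depend on BMAL1 at lights off. All arrays are of zeitgeber time 12, so a change of rhythm, phase or daily mean cannot be read from them.

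The arrays resembled each other, with Pearson's r of 0.980 to 0.986 for arrays of 1 genotype and 0.970 to 0.976 for arrays of both, across the tested probe sets. The probe set of the targeted gene, Arntl, read 39.6, 51.7 and 38.6 on the wild-type arrays and 112.1, 102 and 127.5 on the arrays labelled Bmal1-/-. It was therefore higher, not lower, on all 3 arrays labelled Bmal1-/-. Where its probes lie relative to the deleted part is not stated, so it checks nothing about the labels, and every direction below is relative to the arrays labelled Bmal1-/-. Other clock genes separated the same arrays widely. Nr1d2, which encodes the repressor REV-ERB beta, read 1083.4, 1309.8 and 1424.7 in wild type and 63.8, 91.5 and 79.9 on the arrays labelled Bmal1-/-.

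The sequences before the start sites of Prl, Nono and Sfpq are shown because BMAL1 acts through E-boxes, DNA elements of the form CANNTG, and because the pituitary factor POU1F1, which drives Prl, binds AT-rich elements near ATGNATA. Each is the 250 bases before the RefSeq start (GRCm38.p6), 5′ to 3′ on the plus strand, with matches to CANNTG and to ATGNATA on either strand in capitals.
Prl, chr13:27057320-27057569: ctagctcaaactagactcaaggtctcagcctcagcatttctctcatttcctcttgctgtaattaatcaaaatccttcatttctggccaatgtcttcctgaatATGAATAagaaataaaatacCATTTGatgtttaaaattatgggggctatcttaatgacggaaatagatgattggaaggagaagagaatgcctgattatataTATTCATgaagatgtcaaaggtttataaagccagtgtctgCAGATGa
Nono, chrX:101429401-101429650: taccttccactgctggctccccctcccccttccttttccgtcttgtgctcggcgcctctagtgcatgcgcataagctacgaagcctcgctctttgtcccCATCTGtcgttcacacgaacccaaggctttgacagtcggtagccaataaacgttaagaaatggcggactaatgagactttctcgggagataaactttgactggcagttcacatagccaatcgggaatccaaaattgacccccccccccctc
Sfpq, chr4:127021051-127021300: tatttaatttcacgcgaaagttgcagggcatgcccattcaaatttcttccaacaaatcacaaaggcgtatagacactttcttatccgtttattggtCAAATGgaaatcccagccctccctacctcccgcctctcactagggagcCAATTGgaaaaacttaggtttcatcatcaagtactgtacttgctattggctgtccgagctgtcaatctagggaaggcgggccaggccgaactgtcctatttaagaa
The Prl window held 2 matches to CANNTG, with CATTTG beginning 128 bases before the start and CAGATG beginning 7 bases before it. It also held 2 matches to ATGNATA, beginning 148 and 47 bases before the start, the second on the minus strand. Matches to CANNTG occurred in 66.2% and to ATGNATA in 7.92% of the 32851 RefSeq windows of this length. The canonical E-box CACGTG, itself a form of CANNTG, was found in 6.02% of all windows and in no window of any of the 7 genes. A CANNTG match was also found before Nono, Sfpq, Pspc1 and both Esr1 starts, and none before Drd2 or either Hltf start. Pspc1 held the only other match to ATGNATA among the 7 genes, and the only match to AGGTCA, a half-site of nuclear receptors such as the oestrogen receptor, which 14% of all windows hold on either strand. A match is a description of the letters and not a binding site.

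None of the 7 genes passed the test between the genotypes, which was limma's with Benjamini-Hochberg adjustment. Of the 16 probe sets, 14 were bright enough to be tested, and 0 of the 14 passed an adjusted p of 0.05, against 5.54% of all 13576 tested probe sets (2.75% higher and 2.78% lower in Bmal1-/-). At an unadjusted p under 0.05 there was 1 of 14, a Nono probe set, against 21% of all tested. The genotypes did not overlap at that same 1 probe set, against 25.9% of all tested. On the scale of log2(intensity + 16), the tested members had a median difference (Bmal1-/- minus wild type) of -0.11, with 11 below 0 and 3 above, and the median over all tested probe sets was -0.01. Probe sets of 1 gene are not independent, and Nono gave 3 and Sfpq 5 of the 14. The signs also depend on scaling, as with equal array medians the median over all tested probe sets was 0.05. The median absolute difference was 0.14 for the members and 0.14 for all tested probe sets. The 95% intervals of the 14 fold differences lay between 0.619 and 1.43. Fold intervals here and below are of intensity + 16, which understates changes of dim probe sets, so these bounds do not exclude larger changes of intensity. With 1 added in place of 16, the dim Nono probe set 1431239_at had a log2 difference of -0.56 (SE 0.21) in place of -0.38 (SE 0.14). The smallest log2 difference that passed anywhere on the array was 0.22 in size.

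**Figure D1:**
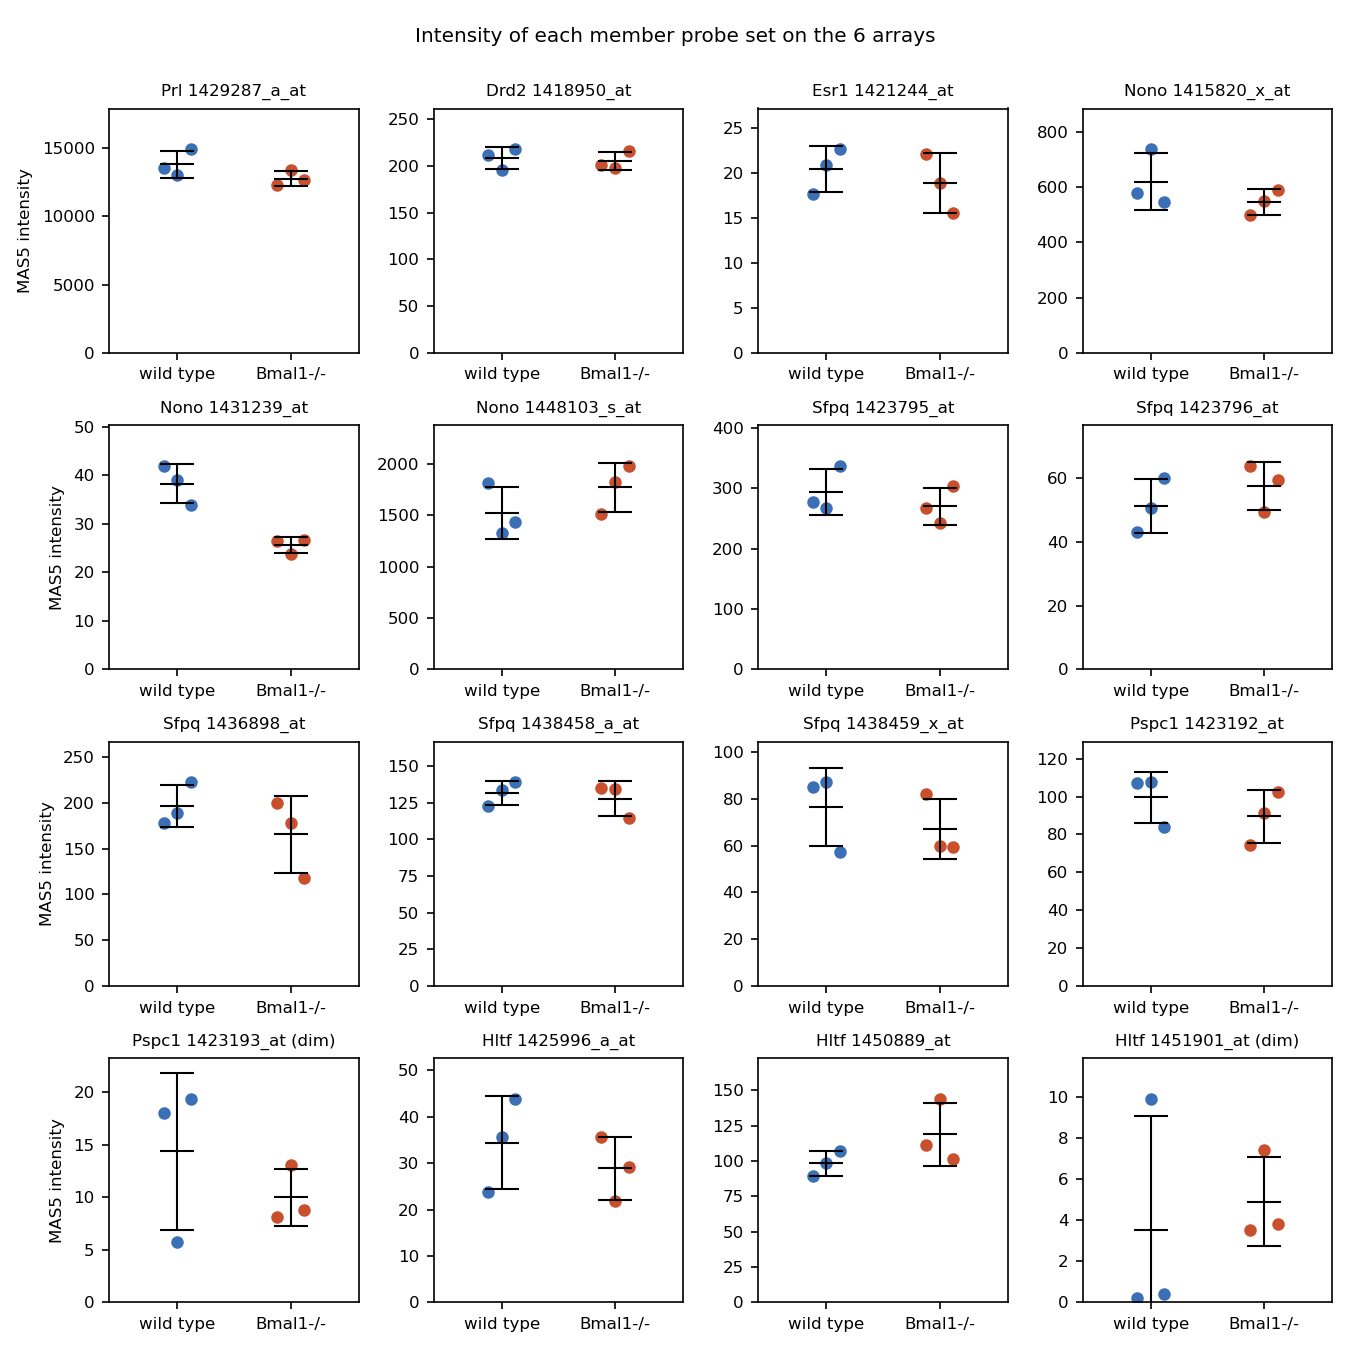
MAS5 intensity (linear axis from 0) of the 16 member probe sets, with wild-type arrays in blue, arrays labelled Bmal1-/- in orange and bars for the mean ± SD of 3 arrays, where a lower bar is cut at 0. The genotypes are separate only at Nono probe set 1431239_at, and the 2 panels marked dim were below the intensity limit of the test.

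Prl transcript was close in level in both genotypes. Its single probe set, 1429287_a_at, read 13564.3, 13002.8 and 14922.9 in wild type and 12323.1, 13374.5 and 12634.2 on the arrays labelled Bmal1-/-. The highest Bmal1-/- array lay above the lowest wild-type array, so the groups overlapped. Means were 13830 ± 987 (SD) and 12777 ± 540, a log2 difference of -0.11 (SE 0.06, limma adjusted p = 0.336), which became 0.038 after quantile normalization and -0.057 without wild-type array 3. The interval of the fold difference ran from 0.841 to 1.02, that is from 15.9% lower to 1.77% higher. Its width rests on the intensity trend of the fit, without which the SE was 0.10 in place of 0.06. Whether so bright a probe set still follows the RNA amount in proportion was not tested, so the interval is one of intensity. The exact two-sided permutation p was 0.2, where 3 arrays against 3 cannot go below 0.1. Prl is read here by 1 probe set, so no other part of the transcript bears on this value. In whole glands, fewer cells of a type and less RNA per cell cannot be told apart.

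No other tested lactotroph marker passed the test. Of 11 markers listed, 7 were on the array under a single gene name, 6 were tested and 0 passed limma's test, against 5.66% of all 8033 genes tested by their brightest probe set. These 6 were the members Prl, Drd2 and Esr1 together with Rxrg, Angpt1 and Ghitm. At an unadjusted p under 0.05 there was 1 of 6, against 21.5% of all genes. The summed intensity of these 6, nearly all of it Prl, was 13733 to 15729 in wild type and 13107.5 to 14116 on the arrays labelled Bmal1-/-, with overlap. Without Prl the sum was 730.5 to 805.6 and 741.4 to 820.5, with Ghitm its largest part. Rxrg, a retinoid X receptor, read 180.7, 153.8 and 161.5 in wild type and 129.9, 127.3 and 149.5 otherwise, without overlap, and did not pass (-0.26, SE 0.11, limma adjusted p = 0.191). Angpt1, a vascular growth factor gene listed as a lactotroph marker, had a log2 difference of 0.21 and Ghitm, a mitochondrial inner membrane protein gene, of 0.15, neither past the threshold. A dimmer Ghitm probe set read the other way, at -0.18 (limma adjusted p = 0.287), without overlap. Some markers of other pituitary cells did differ. All 4 tested somatotroph markers fell on the arrays labelled Bmal1-/-, and their summed intensity was 25599 to 27451 in wild type and 20962 to 22843 otherwise, without overlap. Without Gh, growth hormone and the brightest of them, the sums still did not overlap (6571 to 7398 against 5146 to 6087). The summed markers of corticotrophs and melanotrophs (10414 to 12119 against 9134 to 10290, 1 of 5 fell) and of macrophages (533.2 to 566.7 against 402.2 to 448.1, 1 of 7 fell) were also lower without overlap, with or without their brightest gene. Without Pomc, most of the corticotroph and melanotroph sum was Pcsk1, which fell (-0.50, limma adjusted p = 0.0194). Of the 5 genes 3 lay below 0, while Neurod1 (0.58, limma adjusted p = 0.0890) and Crhr1 (0.12) lay above. Of their 9 tested probe sets, 1 passed as higher and 1 as lower. The thyrotroph and gonadotroph sums were lower (14032 to 15858 against 12100 to 13495, and 16555 to 19732 against 15374 to 15963), but most of both is Cga, the shared hormone alpha subunit, which fell, and without it both overlapped. Among thyrotroph markers Dio2, a deiodinase, rose. The folliculostellate sum (1768 to 2010 against 1431 to 1561) was led by Cyp2f2, a cytochrome P450, which fell, while Aldh1a2, a retinoic acid enzyme, rose, and the sum without Cyp2f2 overlapped (687.0 to 850.7 against 837.9 to 908.9). The endothelial and pericyte sum (1234 to 1494 against 1144 to 1204) was led by the pericyte gene Rgs5, which fell, while Plvap, an endothelial protein gene, rose, and without Rgs5 the sum was higher without overlap (610.1 to 752.7 against 755.0 to 797.5). The sums for the posterior lobe, where 1 of 6 rose, and red blood cells overlapped. The part of these shifts in the Prl value was not tested. The hormone cell sums are mostly of bright probe sets, where quantile normalization moved the Prl difference from -0.11 to 0.038. Whether the marker differences and sums hold under another normalization was not tested.

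Of the receptor transcripts of lactotrophs, Drd2 was close in level in both genotypes too, while Esr1 was too dim to judge. Drd2, the D2 dopamine receptor, read 211.9, 195.5 and 217.7 in wild type and 201.2, 197.7 and 215.7 on the arrays labelled Bmal1-/-. The Bmal1-/- range lay inside the wild-type range. The log2 difference was -0.02 (SE 0.09, limma adjusted p = 0.922), with a fold interval of 0.856 to 1.13. Esr1, oestrogen receptor alpha, was read by a dim probe set at 17.6, 20.9 and 22.6 in wild type and 22.1, 18.9 and 15.5 otherwise. The highest and the lowest Bmal1-/- arrays spanned most of the wild-type range. Its log2 difference was -0.06 (SE 0.16, limma adjusted p = 0.864). The signal sat just above the intensity limit of the test, 17.3, so its fold interval of 0.755 to 1.21 is on a scale that understates changes of dim genes. With 1 added in place of 16, the Esr1 log2 difference was -0.11 (SE 0.27). The Drd2 difference turned to 0.038 with equal array medians and the Esr1 difference to 0.024 after quantile normalization.

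The 3 Nono probe sets had differences of unlike sign, and none passed. The brightest, 1448103_s_at, read 1810.4, 1326.9 and 1430.8 in wild type and 1511.9, 1825.2 and 1980.8 on the arrays labelled Bmal1-/-. Wild-type array 1 lay inside the Bmal1-/- range. The log2 difference was 0.22 (SE 0.12, limma adjusted p = 0.307), with a fold interval of 0.976 to 1.39. It ran from 0.13 without wild-type array 2 to 0.35 without wild-type array 1. Probe set 1415820_x_at read 578.3, 736.8 and 544.2 against 498.2, 548.2 and 590.4, with wild-type array 2 the highest of the 6. This gave a log2 difference of -0.17 (SE 0.11, adjusted p = 0.409), which was -0.042 without wild-type array 2 and -0.26 without wild-type array 3. Probe set 1431239_at, the dimmest, read 42, 39.1 and 33.9 in wild type and 26.5, 23.7 and 26.7 on the arrays labelled Bmal1-/-. Here every Bmal1-/- array was below every wild-type array. The log2 difference was -0.38 (SE 0.14, unadjusted p = 0.0198, limma adjusted p = 0.143), with a fold interval of 0.619 to 0.951, and it did not pass over all probe sets. In the array's naming, the suffix s marks probes shared by several transcripts and x marks probes that may bind unrelated sequences, so the 3 probe sets need not read the same RNA. The mean over the 3 probe sets had a log2 difference of -0.11, opposite in sign to the brightest alone.

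The disagreement was tested directly, in an analysis chosen after these values were seen. For every gene with several tested probe sets, the difference in log2 level between each pair was taken on each array and compared between the genotypes with limma over all 6744 pairs of 3037 genes. The step from 1431239_at up to 1448103_s_at was 4.98, 4.61 and 4.86 log2 units in wild type and 5.17, 5.54 and 5.55 on the arrays labelled Bmal1-/-. The 3 Bmal1-/- arrays were all higher. The step was 0.60 larger (SE 0.16, unadjusted p = 0.00179), and its limma adjusted p was 0.0968, short of the threshold. For 1448103_s_at over 1415820_x_at the step was 0.39 larger (SE 0.16, adjusted p = 0.282), with overlap. Of the 14 member pairs, 0 passed, against 0.415% of all pairs. At an unadjusted p under 0.05 there were 2 of 14, both of Nono, against 13.9% of all pairs. The genotypes did not overlap at 3 of 14, against 18.6% of all pairs. Pairs of 1 gene share probe sets and are not independent.

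**Figure D2:**
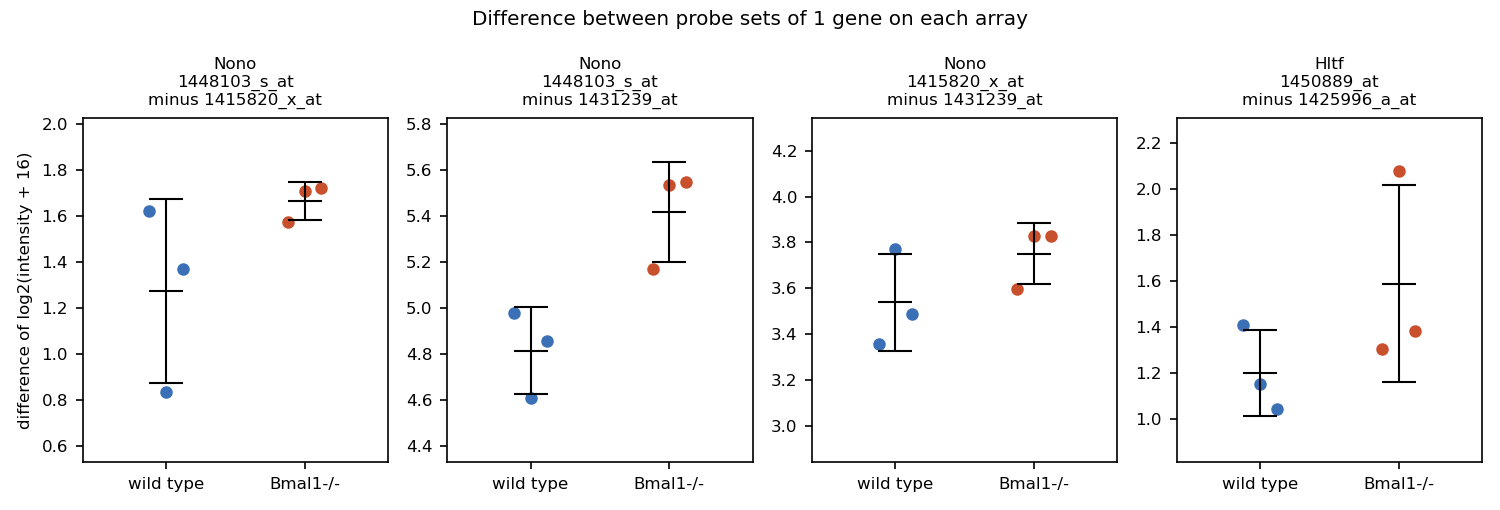
Difference in log2(intensity + 16) between probe sets of Nono and of Hltf on each array (vertical axes all span 1.5 log2 units), with bars for the mean ± SD of 3 arrays. The 3 arrays labelled Bmal1-/- lie above all wild-type arrays in the second panel alone.

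Sfpq, the partner that NONO most often pairs with, was read by 5 probe sets and none passed. The brightest, 1423795_at, read 277.5, 267.5 and 337.3 in wild type and 266.5, 242.2 and 303 on the arrays labelled Bmal1-/-. The groups overlapped, with wild-type array 3 the highest. Its log2 difference was -0.11 (SE 0.11, limma adjusted p = 0.616), with a fold interval of 0.782 to 1.09. It was -0.015 without wild-type array 3 and -0.040 without Bmal1-/- array 5. The other 4 had log2 differences of -0.25, -0.15, -0.04 and 0.13, and adjusted p of 0.397 to 0.882. The lowest of these, 1436898_at, read 177.9, 189 and 222.6 in wild type and 199.7, 178.4 and 118.4 otherwise. Bmal1-/- array 6 stood well below the other 5, and without it the log2 difference was -0.05. The same array was not low at 1423795_at, where it read 303.

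Pspc1, the third member of the family, had 2 probe sets. The tested one, 1423192_at, read 107.3, 107.6 and 84.2 in wild type and 74.7, 91.5 and 102.3 on the arrays labelled Bmal1-/-. The ranges overlapped over most of their width. The log2 difference was -0.13 (SE 0.14, limma adjusted p = 0.629), with a fold interval of 0.740 to 1.12. It ran from -0.24 without wild-type array 3 to -0.030 without Bmal1-/- array 4. The other, 1423193_at, was too dim for the main test at 5.8 to 19.4 in wild type and 8.1 to 13.1 otherwise. With no filter on low values its log2 difference was -0.20 (SE 0.21, adjusted p = 0.712).

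Hltf, the SNF2-family ATPase and ubiquitin ligase, had 3 probe sets, of which 2 were tested. The brightest, 1450889_at, read 89.5, 98.6 and 107.1 in wild type and 111.2, 144.1 and 101.4 on the arrays labelled Bmal1-/-. Bmal1-/- array 5 was the highest, and Bmal1-/- array 6 lay inside the wild-type range. Its log2 difference was 0.23 (SE 0.13, limma adjusted p = 0.359), with a fold interval of 0.957 to 1.43. Without Bmal1-/- array 5 it was 0.10. The second, 1425996_a_at, read 23.8, 35.7 and 43.9 against 35.6, 21.9 and 29.1 and leaned the other way, at -0.16 (SE 0.18, adjusted p = 0.671), from -0.32 without wild-type array 1 to -0.027 without wild-type array 3. The step between both probe sets was 0.39 larger on the arrays labelled Bmal1-/- and did not pass (SE 0.23, limma adjusted p = 0.479, 95% interval -0.10 to 0.88). The dimmest, 1451901_at, read at most 9.9 on any array and was not tested in the main fit. With no filter its log2 difference was 0.13 (SE 0.19, adjusted p = 0.803).

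**Figure D3:**
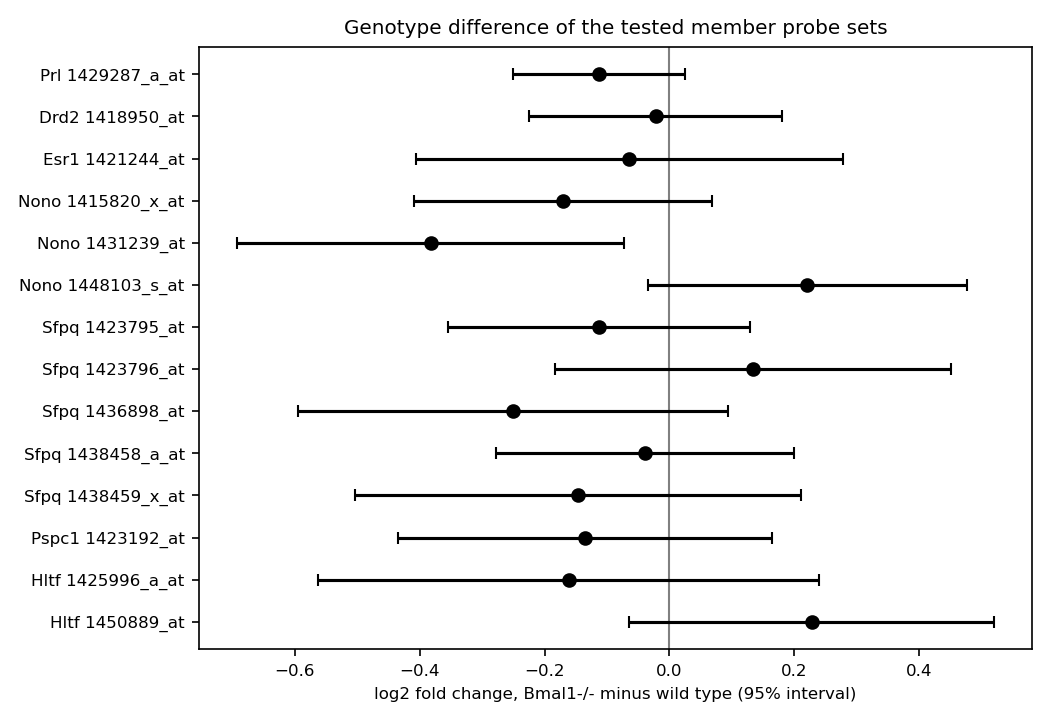
Log2 difference (Bmal1-/- minus wild type, on log2(intensity + 16)) of the 14 tested member probe sets, with points for the estimate and bars for the 95% interval of limma. The interval leaves out 0 only at Nono 1431239_at, and the narrowest belongs to Prl.

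**Figure D4:**
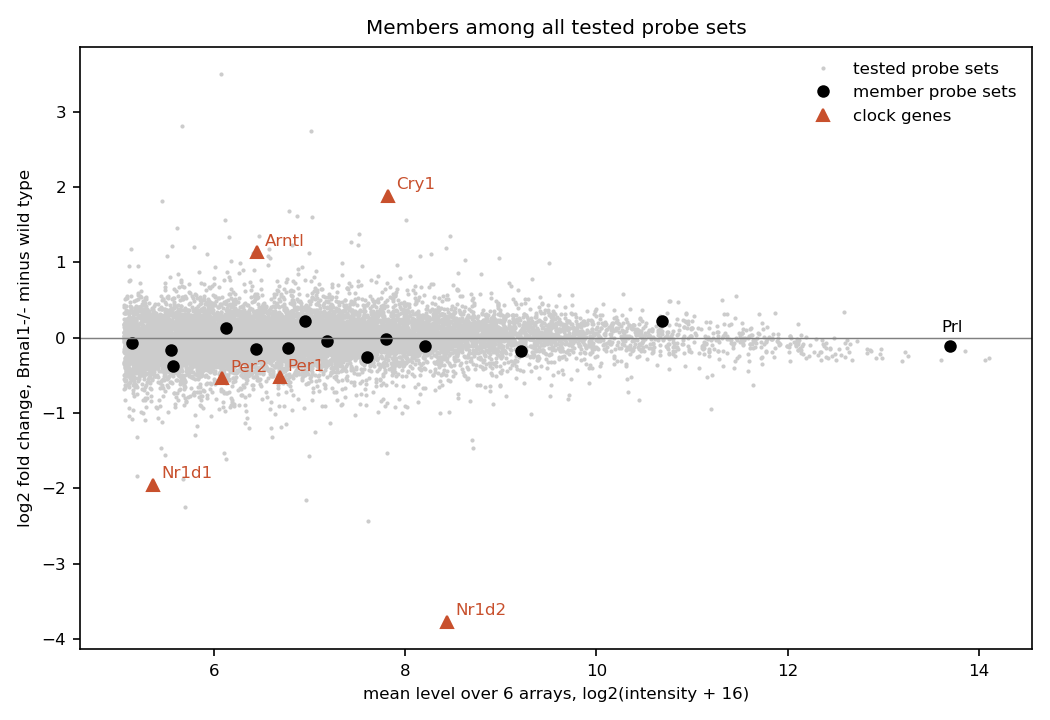
Log2 difference against mean level for all 13576 tested probe sets (grey), the 14 member probe sets (black) and 6 clock genes (orange triangles). The members lie between -0.38 and 0.23, while Nr1d2 is at -3.77 and Cry1 at 1.89.

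The genes whose levels followed each member most closely over the 6 arrays were found by the root mean square difference of log2 levels, each centred on its own mean, among 8033 genes. For Prl these were Lin7c (0.020), Myl12b (0.021) and Vma21 (0.025), where the median over all genes was 0.178. For Nono they were Amph (0.047), Mal (0.054) and Mvk (0.068). For Sfpq they were Plpp1 (0.027), Zfp423 (0.039) and Atg16l1 (0.040), and for Hltf Nudt9 (0.036), Dennd1a (0.066) and Birc3 (0.068). For Pspc1 they were Cse1l (0.030), Pdcd2 (0.042) and Plod1 (0.043), for Drd2 Acot9 (0.025), Pgam1 (0.025) and Naca (0.026), and for Esr1 Tfeb (0.017), Pisd-ps3 (0.019) and Urod (0.031). None of these genes passed the genotype test, with limma adjusted p of 0.333 to 0.965. They were picked for levels like those of members that did not pass, so this is not a separate result. No member was among the nearest genes of another member.

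The lists around these genes were then read, 1 probe set per gene, against the 5.66% of all genes changed by limma in either direction (3% higher, 2.66% lower). Of 30 tested paraspeckle genes, 3 fell and none rose, with a list median of -0.04 against -0.00034 for all genes. Malat1, a long nuclear RNA of the neighbouring speckles, read 441.7, 307 and 322.1 in wild type and 273.2, 224.8 and 161.2 otherwise (log2 difference -0.67, SE 0.17, limma adjusted p = 0.0398). Every Bmal1-/- array was below every wild-type array, yet its 4 other tested probe sets did not pass and ran from -0.36 to 0.09. Srsf10, a splicing factor (-0.50, SE 0.12, adjusted p = 0.0336), and Hnrnpa1, an RNA-binding protein of splicing and export (-0.48, SE 0.11, adjusted p = 0.0325), fell as well. Neither gene's other probe sets passed. The scaffold RNA Neat1 read 49.3, 43.5 and 49.3 against 60.3, 71.3 and 46.5 and did not pass (0.24, adjusted p = 0.396). Matr3, a nuclear matrix protein, was at -0.01. The Srsf10, Hnrnpa1 and Malat1 calls were all lost with no filter on low values, without the intensity trend, and without any 1 of wild-type arrays 1 and 3 and Bmal1-/- arrays 5 and 6 (highest adjusted p = 0.132, Malat1 without wild-type array 1), the Malat1 call also with robust eBayes (0.0617) and the Srsf10 call also without Bmal1-/- array 4 (0.102).

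Of 14 tested receptors and ligands that set prolactin output, 1 fell and none rose. It was Gal, the neuropeptide galanin, which oestrogen induces in lactotrophs. Gal read 54.3, 64.9 and 78.7 in wild type and 27.2, 28.4 and 24.8 on the arrays labelled Bmal1-/-. All 3 Bmal1-/- arrays were below all wild-type arrays, and the log2 difference was -0.93 (SE 0.15, limma adjusted p = 0.00414). Gal passed in all 15 settings in which it was tested, the main one included, at adjusted p up to 0.0250. It was also the only 1 of 13 tested oestrogen-responsive genes that passed. The median of that list was -0.11, and Ccnd1, a cyclin (-0.24, adjusted p = 0.102), and Ctsd, a lysosomal protease (-0.18, adjusted p = 0.182), came next by p.

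In a list of G proteins and effectors around the D2 receptor, 23 genes were tested, of which 2 rose and 1 fell. The list also holds the stimulatory subunit Gnas, which is not among the inhibitory subunits through which this receptor signals. Of those, Gnai1, Gnai2, Gnai3, Gnao1 and Gnaz were tested and none passed. Rgs4, which shortens the activity of G alpha subunits, read 120, 169.3 and 127.4 in wild type and 238.2, 270 and 231.1 on the arrays labelled Bmal1-/- (0.77, SE 0.13, limma adjusted p = 0.00450). The groups were far apart at this probe set, while the 2 other Rgs4 probe sets did not pass, at 0.36 and -0.02. Gnb2, a G beta subunit, rose from 877.7 ± 27.3 to 1129 ± 25.2 (0.36, SE 0.07), and its call was lost without the intensity trend (0.0782). Gnas, the stimulatory G alpha subunit, fell from 8940 ± 165 to 7397 ± 277 (-0.27, SE 0.06) at its brightest probe set. Its other tested probe sets were also below 0 and did not pass, at -0.17 (limma adjusted p = 0.358) and -0.35 (limma adjusted p = 0.207). The Gnas call was lost without the trend (adjusted p = 0.149), with no filter (0.0795), after quantile normalization (-0.04, adjusted p = 0.690), and without wild-type array 3 or Bmal1-/- array 4 or 6 (highest 0.0788). Gnai2, an inhibitory subunit through which the D2 receptor signals, had a log2 difference of -0.28 and did not pass (adjusted p = 0.0562).

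Among 20 tested transcription factors and cofactors of the prolactin gene, 1 rose and none fell by the brightest probe set. Over all 36 tested probe sets of this list, 1 passed as higher and 1 as lower. Lhx3, a homeobox gene required for most anterior lobe lineages, read 460.1, 443 and 492.7 in wild type and 574.5, 575.4 and 561.4 otherwise (0.29, SE 0.08, limma adjusted p = 0.0484). That call was lost without any 1 of the 6 arrays (highest adjusted p = 0.147). A dimmer Lhx3 probe set leaned the same way and did not pass (0.26, limma adjusted p = 0.267). Of 20 tested HLTF relatives and partners in DNA damage tolerance, 0 passed limma's test, and 4 had an unadjusted p under 0.05, near the 21.5% of all genes. Rad18, the ubiquitin ligase that acts on PCNA, read 47.3, 54.7 and 38.5 in wild type and 34.5, 29.3 and 18.4 otherwise (-0.54, SE 0.18, limma adjusted p = 0.0924). Smarca4, the BRG1 ATPase, read 293.3, 278 and 239.3 against 353.8, 318.5 and 327.4 (0.29, SE 0.10, adjusted p = 0.101). Both separated the genotypes without overlap and neither passed. Of 18 tested clock genes, 6 rose and 6 fell. Nr1d2 had a log2 difference of -3.77 and Dbp, an output gene of the clock, of -2.43. Npas2, a relative of CLOCK, read at most 6.6 in wild type and at least 110.9 otherwise, and Nr1d1, which encodes REV-ERB alpha, at least 57.9 in wild type and at most 9.3 otherwise, where the pseudocount of 16 sets the size of the log2 difference. Per1, one of the PER family that NONO binds, fell (-0.53, SE 0.13, limma adjusted p = 0.0393). Per2 (-0.54, adjusted p = 0.187) and Wdr5, a histone methylation cofactor found with PER (-0.20, adjusted p = 0.467), did not pass.

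**Figure D5:**
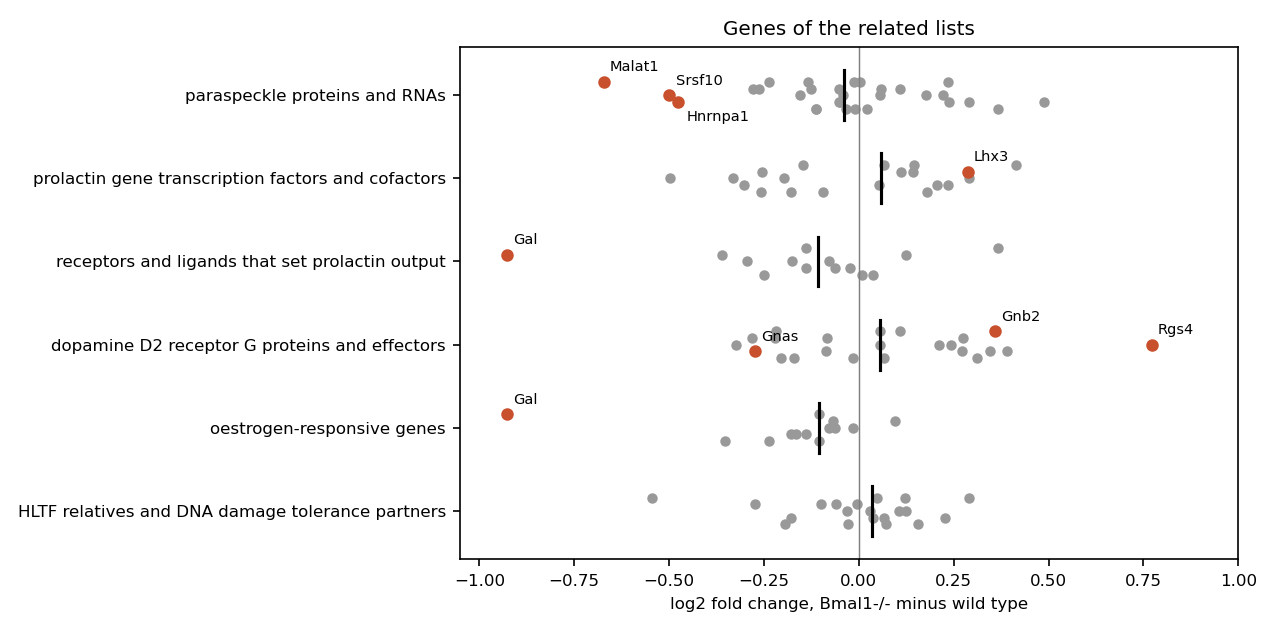
Log2 difference (Bmal1-/- minus wild type) of the tested genes in 6 lists, 1 point per gene, with genes past an adjusted p of 0.05 in orange and named and a black bar at each list's median. The list medians lie between -0.11 and 0.06, and Gal, in both the receptor and the oestrogen list, is the lowest point.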

How the data were processed

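The deposited table holds 1 linear intensity per probe set and array, which the authors made with MAS5 per the submitters' processing notes. No source used here gives the version of MAS5, its target or detection calls. The mean trimmed by 2% at each end was 100.0 on every array, so each array had been scaled to the same trimmed mean. The array medians of non-control probe sets still differed, at 33.5 to 34.3 in wild type and 31.7 to 32.2 on the arrays labelled Bmal1-/-. With equal array medians, the median log2 difference over all tested probe sets was 0.05 in place of -0.01. Platform annotation gave 1 gene for 20393 probe sets, several for 691 and none for 1606, and 64 control probe sets were left out.

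Intensities were taken as log2(intensity + 16), without further normalization. The brightest 60% of probe sets by mean over the 6 arrays, 13576, were tested with limma 3.58.1 in R 4.3.3 (eBayes with an intensity trend, two-sided, Benjamini-Hochberg over all tested). The brightest tested probe set stood for a gene. The p-values measure the spread between pools of animals. The labels give no batch, and precision is limited by the number of arrays. The procedure was tested on simulated data whose differences were all larger than those of the members. That test does not bear on differences as small as theirs.

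The 7 members and the gene lists were chosen with earlier results of these data known. Named were all member probe sets, list genes past the threshold (up to 4 by size, else the 2 smallest p), the 3 genes nearest to a member, and 6 clock genes. Rxrg, Angpt1, Ghitm, Gh, Pomc, Pcsk1, Neurod1, Crhr1, Cga, Dio2, Cyp2f2, Aldh1a2, Rgs5, Plvap, Ccnd1, Ctsd, Neat1, Matr3, Gnai2 and Wdr5 are named for contrast, chosen after their values were seen, as were the marker sums without the brightest gene. Promoter sequences are RefSeq's (GRCm38.p6) and matched all 7 genes.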

Additional observations from a re-analysis of the deposited data

How the results depend on the processing

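No member probe set passed in any alternative in which it was tested (quantile normalization, equal array medians, a pseudocount of 1 or of 64, no filter, the top 40%, no intensity trend, robust eBayes, array weights, and each array left out). Esr1, Nono 1431239_at, Sfpq 1423796_at and Hltf 1425996_a_at are too dim for the top 40%, and Pspc1 1423193_at and Hltf 1451901_at were tested with no filter alone. The lowest adjusted p was 0.0850, for Nono 1431239_at without the trend. Signs turned for some members: Drd2 to 0.038 and Sfpq 1438458_a_at to 0.020 with equal array medians, Esr1 to 0.024 and Prl, from -0.11, to 0.038 after quantile normalization. Nono, at 0.22 by its brightest probe set, was -0.11 as the mean of its probe sets. With 1 array left out, Prl ran from -0.16 to -0.057, Drd2 ran from -0.064 to 0.0078, Esr1 from -0.13 to 0.0063, and Sfpq 1438458_a_at from -0.084 to 0.030. Quantile normalization gives each rank 1 value, which bears on probe sets as bright as Prl. The count of changed probe sets, 752, became 330 with no filter, 407 without the trend, and 314 (without wild-type array 3) to 950 (without wild-type array 2) with 1 array left out, where fewer arrays enter. The 3 paraspeckle calls became 0 with no filter or no trend. The 3 calls in the list around the D2 receptor became 1 without the trend. The 1 prolactin transcription factor call became 2 with equal array medians. With every probe set counted it also became 2, with 1 higher and 1 lower. It became 0 with a pseudocount of 1, quantile normalization, no filter or no trend. Gal is too dim for the top 40% and was not tested there. No paired analysis was possible because the genotypes share no replicate number. Low intensities carry no detection call, which limits Esr1 and the dimmer Pspc1 and Hltf probe sets.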
